A study of Mus musculus with 79 samples.

Results

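The genes of MHC class II antigen presentation were followed across genotype, smoke exposure, sex and exposure duration in whole lung RNA of 79 mice. Members were 8 genes, matched by symbol or synonym to the gene rows of the deposited table, and 7 of them had a row, one each, among 31350 rows: H2-Aa (NM_010378), H2-Ab1 (NM_207105), H2-Eb1 (NM_010382), Cd74 (NM_001042605), Ciita (NM_001243760), H2-DMa (NM_010386) and H2-Ob (NM_010389). The intensity of H2-DMb2 was not analysed here. Each mouse gave 1 array, and the mice formed 16 groups of 4 to 6. WT mice and their BENaC littermates, which overexpress Scnn1b in the airways and serve as a model of chronic bronchitis with dehydrated mucus, were on a C57BL/6J background and 5 to 7 weeks old. Smoke mice received the smoke of 6 cigarettes per day in a chamber for 1 day or 5 days and sham mice received room air there, and lungs were taken 4 hours after the last exposure. The 1-day study held 20 smoke and 20 sham mice, and the 5-day study held 19 smoke and 20 sham mice. Females and males were present in every combination of genotype, exposure and duration. The groups come from the sample titles. The source names of 13 WT smoke mice call them BENaC, against their titles and genotype entries.

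In the labels' tissue check, the alveolar type 2 cell markers Sftpc, Sftpb, Sftpa1 and 5 others had mean log2 intensities between 10.49 and 12.66, while array medians lay between 4.44 and 4.55. Scnn1b ran from 8.42 to 9.47 in the 40 WT mice (mean 8.98) and from 11.52 to 11.88 in the 39 BENaC mice (mean 11.69), with no overlap. One mouse had been relabelled by the study from this gene, so the check was not fully independent of the labels. No 2 arrays held identical values, and correlations between arrays ran from 0.965 to 0.995. The arrays with the lowest mean correlation with the others were BENaC sham male 1 day replicate 1, WT smoke female 5 days replicate 2, BENaC smoke female 5 days replicate 3 and BENaC sham male 5 days replicate 3. A pair of mice stood highest in thymus genes, and the mice that carried thymus genes, as named below, are this pair. The mean of 5 thymus genes was 6.04 in BENaC smoke female 1 day replicate 2 and 4.24 in replicate 3 of that group, against a median of 3.46 and a maximum of 3.84 in the other 77 mice. In replicate 2 Rag1, a recombinase gene of immature lymphocytes, measured 7.85 (highest of the other 77, 4.32) and Dntt measured 7.09 (highest of the other 77, 3.88), and its T cell marker mean was 7.67, against at most 6.92 in the other 77. Replicate 3 exceeded the other 77 for Rag1 (4.86) and Dntt (4.27) only. Its Rag2 (3.76) and Ccr9 (4.44) lay within their range, as did its T cell marker mean (6.81), and its Ptcra (3.89) lay below their median of 3.94. The fits were repeated without the 4 arrays and, for terms that include the 1-day mice, without these 2 mice, both chosen after the values were seen, and changes in the count of members that passed are given below.

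Class II molecules display peptides from engulfed material to CD4 T cells. H2-Aa and H2-Ab1 encode the alpha and the beta chain of the I-A molecule, and H2-Eb1 encodes the beta chain of the I-E molecule. The I-E alpha chain gene H2-Ea and its pseudogene entry H2-Ea-ps had no row. The H2-Eb1 values are therefore read as RNA of that gene alone and not as an I-E molecule. An alpha and a beta chain assemble in the endoplasmic reticulum with the invariant chain Cd74, which blocks the groove and steers the complex to endosomes. There H2-DM, of which H2-DMa is a chain, exchanges the remnant of Cd74 for peptide, and H2-O, of which H2-Ob is a chain, restrains H2-DM, chiefly in B cells. Ciita is the transactivator that switches the class II genes on through factors bound to the X and Y boxes of their promoters. In the lung, dendritic cells, B cells, macrophages and alveolar type 2 cells carry class II molecules.

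The promoters of the class II genes were read for letters of the X and Y boxes, outside these measurements. Of the 8 members, H2-Aa, H2-Eb1, H2-DMa, H2-DMb2 and H2-Ob had a promoter in the RefSeq table used here (GRCm38.p6, all on chromosome 17), and H2-Ab1, Cd74 and Ciita did not. The stretch from base -150 to base -11 before the start is printed 5′ to 3′ for both H2-Aa and H2-Eb1, whose intensity differed with genotype at 5 days, and for H2-Ob, whose genotype coefficient did not pass there. Capitals mark ATTGG, the core of the Y box, and AACNNNTG, letters inside the X box, where the latter lies 20 to 40 bases before the former.
H2-Aa (chr17:34287834-34287973, minus strand): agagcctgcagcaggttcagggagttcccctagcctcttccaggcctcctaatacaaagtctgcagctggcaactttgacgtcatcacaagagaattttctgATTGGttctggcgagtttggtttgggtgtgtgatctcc
H2-Eb1 (chr17:34305717-34305856, plus strand): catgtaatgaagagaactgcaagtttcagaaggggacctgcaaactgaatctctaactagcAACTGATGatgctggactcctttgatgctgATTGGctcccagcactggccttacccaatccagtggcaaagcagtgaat
H2-Ob (chr17:34238755-34238894, plus strand): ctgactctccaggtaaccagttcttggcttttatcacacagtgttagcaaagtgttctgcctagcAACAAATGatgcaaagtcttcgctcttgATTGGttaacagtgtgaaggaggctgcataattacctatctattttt

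ATTGG began at base -48 in H2-Aa, -59 in H2-Eb1 and -57 in H2-Ob. The pair of boxes was found in H2-Eb1, with AACTGATG beginning 30 bases ahead of ATTGG, and in H2-Ob, with AACAAATG beginning 28 bases ahead. The H2-DMb2 promoter held the pair as well, with 31 bases between the first letters. H2-Aa held ATTGG without AACNNNTG, and the second of the 2 H2-DMa promoters held ATTGG at base -198 only. The printed H2-Aa stretch reads aactttga ahead of ATTGG, which departs from AACNNNTG in its closing letters alone. The members were searched for these letters only, and on the strand of the gene only. A promoter without a match is thus not shown to lack an X box. All 32851 promoters in the table run from 250 bases before to 50 bases after a start. They were searched on both strands, a wider rule than for the members. Of them 37.4% held ATTGG, 35.6% held AACNNNTG and 0.767% held the pair at this spacing. The letters and the spacing were chosen after the class II promoters had been read, and a match is a description, not a bound site.

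Values are log2 intensities, so a difference of 1 is a 2-fold change, and each difference below is the coefficient of limma's linear model in that study with terms for genotype, exposure and sex. A gene passed where its p, adjusted by Benjamini-Hochberg over all 31350 rows, was below 0.05. In lung homogenate, fewer cells of a class II-bearing type and less class II RNA per cell cannot be told apart.

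Across the 16 groups, the class II chains, Cd74, Ciita and H2-DMa were lowest in the same group and highest in the same group. For all 6 of them the lowest mean was that of WT smoke females at 5 days and the highest that of BENaC sham females at 5 days, and the group means spanned from 0.67 for Cd74 to 1.15 for Ciita. The lowest place rested on 1 mouse, since without WT smoke female 5 days replicate 2 the lowest of the 6 genes' means was that of WT smoke females at 1 day, and the span was 0.48 for Cd74 and 1.04 for Ciita. H2-Ob had another order, lowest in BENaC smoke males at 5 days and highest in WT sham females at 1 day, with a span of 0.94. Most neighbours in these orders did not differ beyond their spread, since of 15 gaps between neighbouring means 1 exceeded the larger SD for H2-Aa and 0 for each other member. With sexes joined into 8 conditions of 9 to 11 mice, WT smoke at 5 days and WT smoke at 1 day were the bottom pair for these 6 genes, and BENaC sham at 5 days was the top, with or without that mouse.

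**Figure D1:**
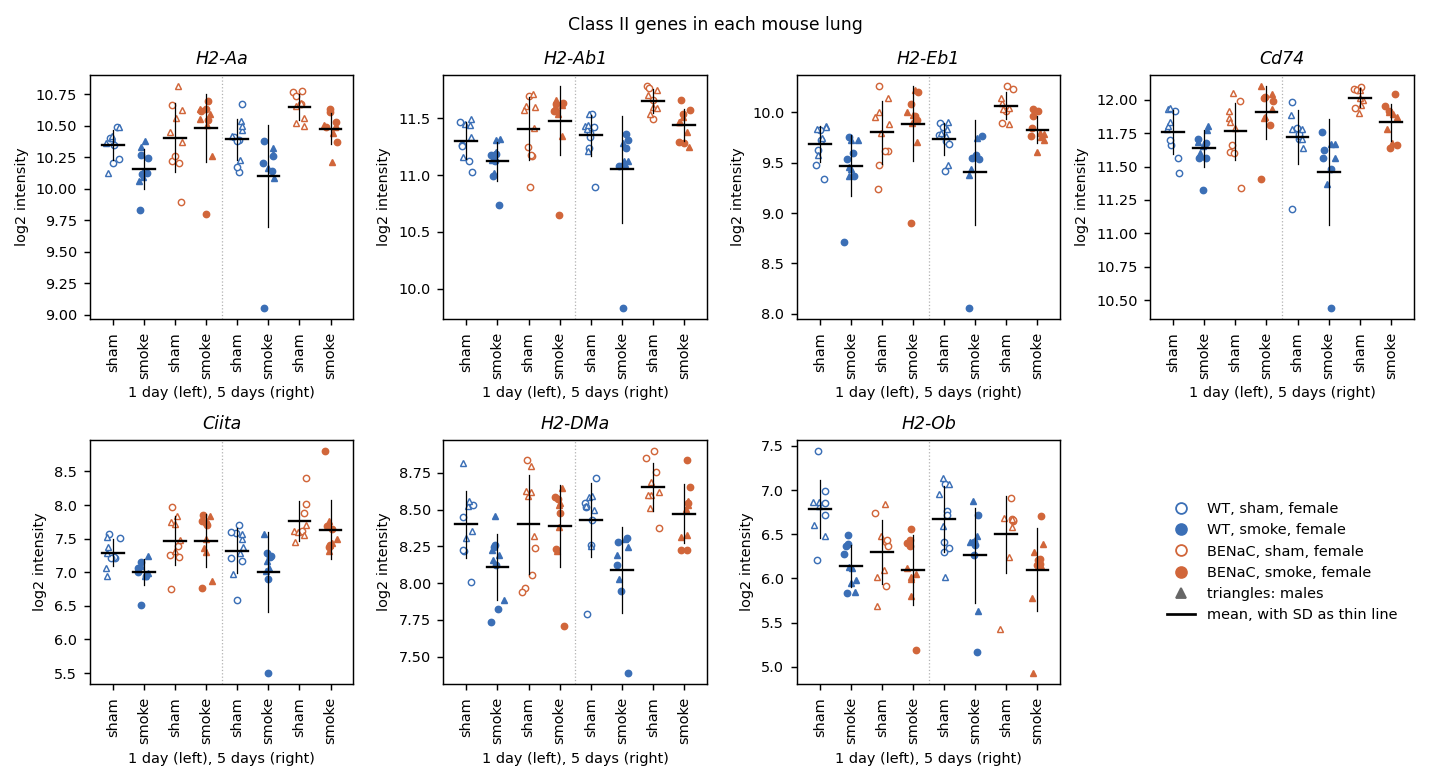
Log2 intensity of each class II gene in every mouse (y axes) by exposure, genotype and duration (x axes), with females as circles, males as triangles, the mean as a bar and the SD as a thin line. The filled blue circle far below the rest at 5 days is WT smoke female replicate 2, with a Cd74 value of 10.44.

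Genotype at 5 days gave the widest change of these genes. In BENaC lungs 6 of 7 members rose above WT at 5 days, where 10.2% of all rows passed, 4.85% as a rise and 5.33% as a fall. Ciita, the transactivator, rose most, by 0.54 (SE 0.13, adjusted p = 0.00508), which is 1.45-fold. The chains H2-Eb1 (0.38 (adjusted p = 0.00292)), H2-Ab1 (0.34 (adjusted p = 0.00337)) and H2-Aa (0.32 (adjusted p = 0.00216)) rose together with the invariant chain Cd74 (0.33 (adjusted p = 0.00184)) and the peptide exchange chain H2-DMa (0.30 (adjusted p = 0.00497)). H2-Ob, the restraint on H2-DM, differed by -0.16 (SE 0.14, adjusted p = 0.567). The median coefficient of the 7 members was 0.33, against -0.01 over all rows. Past 1.3-fold, a further condition met by 2.52% of rows, was Ciita alone among the members.

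The rise was seen in nearly every BENaC mouse. Of 19 BENaC mice at 5 days, 19 lay above the WT mean of their exposure and sex for Cd74, Ciita, H2-Ab1 and H2-Eb1, and 18 for H2-Aa and H2-DMa, while 8 did for H2-Ob. The lowest, median and highest H2-Ab1 values were 10.89, 11.41 and 11.54 in WT sham mice (n = 11) and 11.49, 11.66 and 11.79 in BENaC sham mice (n = 9). In smoke mice they were 9.83, 11.13 and 11.36 for WT (n = 9) and 11.25, 11.47 and 11.66 for BENaC (n = 10). The genotypes overlapped by a narrow margin, since the lowest BENaC sham mouse lay below the highest WT sham mouse. Cd74 ran through 11.18, 11.74 and 11.98 in WT sham lungs and 11.90, 12.01 and 12.09 in BENaC sham lungs, and through 10.44, 11.56 and 11.76 and 11.64, 11.88 and 12.05 in the smoke lungs of the same genotypes. For Ciita the sham lungs ran through 6.58, 7.37 and 7.71 in WT and 7.44, 7.62 and 8.40 in BENaC mice, and the smoke lungs through 5.50, 7.18 and 7.57 and 7.32, 7.46 and 8.81. The highest of these, 8.81, belonged to BENaC smoke female replicate 5, above the rest of its group.

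Means of the other members had the same order of genotypes. H2-Aa averaged 10.39 ± 0.16 in WT and 10.65 ± 0.10 in BENaC sham mice, and 10.10 ± 0.40 and 10.48 ± 0.12 in smoke mice (SD, n = 11, 9, 9 and 10). H2-Eb1 averaged 9.74 ± 0.16 and 10.07 ± 0.13 in sham mice and 9.40 ± 0.52 and 9.83 ± 0.14 in smoke mice. H2-DMa averaged 8.43 ± 0.25 and 8.65 ± 0.16, then 8.09 ± 0.29 and 8.47 ± 0.20. In each case the BENaC mean stood above the WT mean of the same exposure. Without WT smoke female replicate 2 the 6 genes still passed, with coefficients between 0.26 for H2-Aa and 0.45 for Ciita (adjusted p from 1.07e-05 for H2-Eb1 to 0.00474 for H2-DMa), and they passed in each of the 39 fits that left out 1 mouse.

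After 1 day the same direction was present and fewer members passed. Ciita rose by 0.32 (SE 0.09, adjusted p = 0.0316) and H2-Ab1 by 0.23 (SE 0.07, adjusted p = 0.0317) in BENaC mice, 2 of 7 members, where 5.87% of all rows passed, 3.58% as a rise and 2.29% as a fall, and 0 passed with the 1.3-fold condition, which 1.54% of rows met. H2-Eb1 at 0.27 (adjusted p = 0.0739), H2-Aa at 0.19 (adjusted p = 0.088), Cd74 at 0.14 (adjusted p = 0.128) and H2-DMa at 0.14 (adjusted p = 0.368) did not pass. H2-Ob was again on the other side, at -0.27 (adjusted p = 0.144). Of 20 BENaC mice, 17 lay above the WT mean of their exposure and sex for H2-Eb1, 16 for H2-Ab1 and 15 for Ciita. The 1-day count rested on single mice. Without the 2 mice that carried thymus genes 0 members passed, with Ciita at 0.28 (adjusted p = 0.0869) and H2-Ab1 at 0.20 (adjusted p = 0.0864), and the part of those genes in the count was not tested. Without BENaC sham female replicate 4, 5 members passed, and without BENaC smoke female replicate 5, the lowest mouse of its group for all 7 members, 4 passed, with H2-Ab1 at 0.27 (adjusted p = 0.0032) and H2-Eb1 at 0.31 (adjusted p = 0.0137), whereas 0 passed without any one of BENaC smoke female replicates 1 to 4, BENaC smoke male replicate 1, BENaC sham male replicate 2, BENaC sham female replicate 5 or WT smoke female replicate 5, and 1 passed without WT smoke male replicate 2 or WT sham male replicate 1. The genotype by duration term passed for 0 of 7 members in limma (smallest adjusted p = 0.818, unadjusted p below 0.05 for 1, Cd74, and for 6.07% of rows), so the larger 5-day coefficients are not shown to differ from those at 1 day. By this term 0% of all rows passed.

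**Figure D2:**
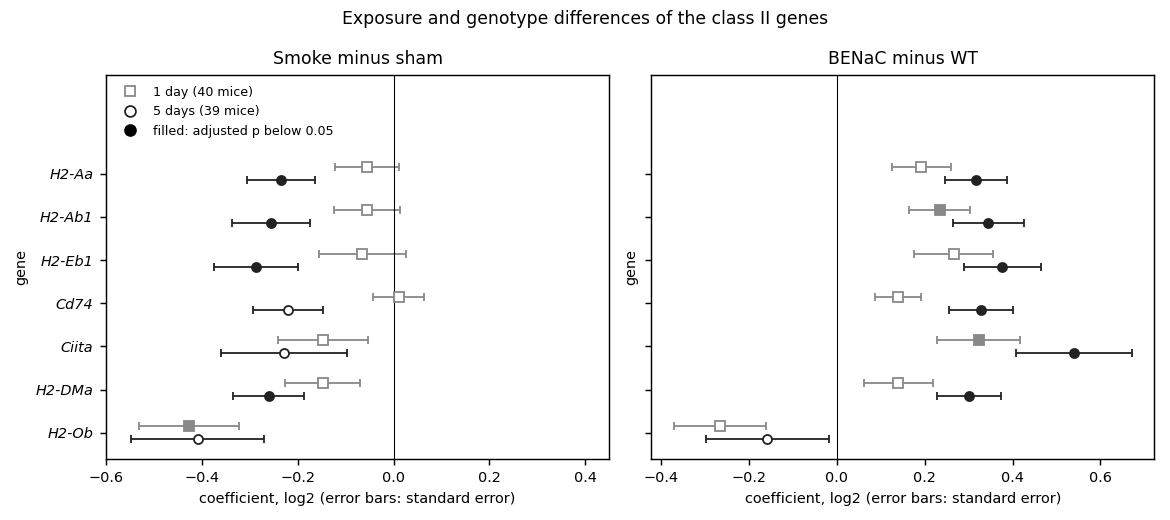
Coefficients of smoke minus sham (left) and BENaC minus WT (right) on the log2 scale for each gene (y axis), with standard errors as bars, squares for 1 day (40 mice), circles for 5 days (39 mice) and filled symbols where the adjusted p was below 0.05. At 5 days 6 of 7 genotype coefficients lie to the right of 0 between 0.30 and 0.54, and all 7 exposure coefficients lie to the left.

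Smoke for 5 days lowered class II genes. Of the 7 members 4 fell, where 6.53% of all rows passed, 3.17% as a rise and 3.37% as a fall. They were the chains H2-Eb1 at -0.29 (SE 0.09, adjusted p = 0.037), H2-Ab1 at -0.26 (SE 0.08, adjusted p = 0.0471) and H2-Aa at -0.23 (SE 0.07, adjusted p = 0.0375), and H2-DMa at -0.26 (SE 0.07, adjusted p = 0.0221), or 0.82 to 0.85 of the sham intensity. Cd74 at -0.22 (adjusted p = 0.0606), Ciita at -0.23 (adjusted p = 0.373) and H2-Ob at -0.41 (adjusted p = 0.0706) had coefficients of the same sign and did not pass. The median over the 7 members was -0.26, against -0.00178 over all rows, and 0 members passed with the 1.3-fold condition, which 1.15% of rows met.

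All 7 means were lower after smoke in each of the 4 combinations of genotype and sex at 5 days. Of 19 smoke mice, 18 lay below the sham mean of their genotype and sex for H2-Aa, H2-Eb1 and H2-DMa, 17 for H2-Ab1 and Cd74, and 16 for Ciita and H2-Ob. Smoke and sham values did not overlap in 1 of the 4 combinations for H2-Aa (BENaC females), H2-Ab1 (BENaC males) and H2-Eb1 (BENaC males). For each other member this held in 0 of 4. These groups held 4 or 5 mice, and the share of all rows with such a gap was not counted, so the gaps only describe the values. In BENaC males the 5 sham H2-Eb1 values were 10.05, 10.09, 10.14, 9.89 and 10.04, and the 5 smoke values were 9.61, 9.72, 9.78, 9.75 and 9.80. In the same mice H2-Ab1 measured 11.60, 11.70, 11.75, 11.54 and 11.59 in sham lungs and 11.25, 11.46, 11.38, 11.47 and 11.51 in smoke lungs. In the remaining combinations the highest smoke mouse reached into the sham range.

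The WT smoke females at 5 days held the mouse with the lowest class II values of the series. Their 5 Cd74 values were 11.48, 10.44, 11.62, 11.76 and 11.56, their H2-Ab1 values 11.08, 9.83, 11.31, 11.36 and 11.24 and their Ciita values 6.90, 5.50, 7.23, 7.28 and 7.25. Replicate 2 was the lowest of the 79 mice for each member but H2-Ob. Without this mouse the coefficients were smaller and their standard errors smaller still, at -0.20 for H2-Eb1 (adjusted p = 0.0032), -0.17 for H2-Aa (adjusted p = 0.00757), -0.18 for H2-Ab1 (adjusted p = 0.0122) and -0.22 for H2-DMa (adjusted p = 0.0318), and Cd74 passed as well at -0.16 (adjusted p = 0.0397). Ciita was then at -0.13 (adjusted p = 0.576). With all mice the 4 calls stood close to the threshold, and leaving out 1 mouse at a time gave between 1 and 5 members passing, with H2-DMa passing in each of the 39 fits. The count was 1 without WT sham female replicate 2, WT sham male replicate 1 or 2, BENaC sham female replicate 1 or 3 or BENaC smoke male replicate 1, and 2 without WT sham female replicate 4, WT sham male replicate 4, WT smoke male replicate 4, BENaC sham female replicate 4 or BENaC smoke male replicate 2. Without all 4 arrays that stood apart, 5 members fell with smoke and 6 rose with genotype at 5 days, and at 1 day 1 fell with smoke and 2 rose with genotype.

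After 1 day of smoke the member that passed was H2-Ob. It fell by 0.43 (SE 0.10, adjusted p = 0.00544) to 0.744 of the sham intensity, the one member of 7 to pass, where 9.45% of all rows passed, 5.03% as a rise and 4.43% as a fall, and it passed the 1.3-fold condition that 1.07% of rows met. The remaining coefficients ran from -0.15 for H2-DMa (adjusted p = 0.271) and -0.15 for Ciita to 0.01 for Cd74 (adjusted p = 0.942). The lowest, median and highest H2-Ob values were 6.20, 6.84 and 7.44 in WT sham mice, 5.83, 6.12 and 6.50 in WT smoke mice, 5.69, 6.39 and 6.84 in BENaC sham mice and 5.19, 6.08 and 6.56 in BENaC smoke mice (n = 10 each). The WT sham mice stood highest, and each other group overlapped with them. In WT males alone the exposures did not overlap for H2-Ob, with sham values of 6.48, 6.60, 6.82, 6.86 and 6.87 and smoke values of 5.84, 5.95, 6.13, 5.98 and 6.11. Ciita, which did not pass, had such a gap in WT females (highest smoke value 7.15, lowest sham value 7.21). The share of all rows with a gap of this kind was not counted. The fall passed in each of the 40 fits that left out 1 mouse.

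H2-Ob kept a similar coefficient at 5 days, when its spread was wider. Its lowest, median and highest values were then 6.02, 6.72 and 7.14 in WT sham (n = 11), 5.17, 6.41 and 6.88 in WT smoke (n = 9), 5.43, 6.66 and 6.91 in BENaC sham (n = 9) and 4.93, 6.19 and 6.70 in BENaC smoke mice (n = 10). The 5-day values of the 4 groups overlapped throughout. The exposure by duration term was 0.01 (SE 0.18, adjusted p = 0.994) for H2-Ob and -0.21 (SE 0.11, adjusted p = 0.485) for Cd74, and it passed for 0 of 7 members in limma, with unadjusted p below 0.05 for 0, where 0.612% of all rows passed and 11.1% had such a p. The model of this term held only exposure, duration and their interaction. By this term, exposure coefficients at 1 and 5 days are not shown to differ for any member.

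At 1 day the exposure differences were compared between the genotypes. In WT mice the smoke mean lay below the sham mean for all 7 members in both sexes, in BENaC females it lay above for each member except H2-Ob, and in BENaC males it lay below for H2-Aa, H2-Ab1, H2-DMa, Ciita and H2-Ob. The exposure by genotype term was positive for all 7, from 0.25 for H2-Ab1 to 0.44 for H2-Ob, against a median of 0.03 over all rows. It passed for 0 of 7 (0.00638% of all rows passed), with the smallest adjusted p at 0.642 for Cd74 in limma, and unadjusted p was below 0.05 for 3 members, Cd74, H2-Aa and H2-Ob, and for 6.98% of rows. That count of 3 was 7 without BENaC smoke female replicate 5, with terms from 0.31 to 0.56, and 1, Cd74, without the 4 arrays or without the 2 mice that carried thymus genes, and 0 passed in each (smallest adjusted p = 0.349, 0.564 and 0.893). At 5 days the same term ran from 0.01 to 0.18 and passed for 0 of 7 members and for 0% of rows, with unadjusted p below 0.05 for 0 members and 3.82% of rows. Its positive sign rested on 1 mouse, since without WT smoke female replicate 2 the term was negative for each member but H2-DMa and ran from -0.14 to 0.07. A smoke response that depends on genotype was therefore not shown for any member at either duration.

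**Figure D3:**
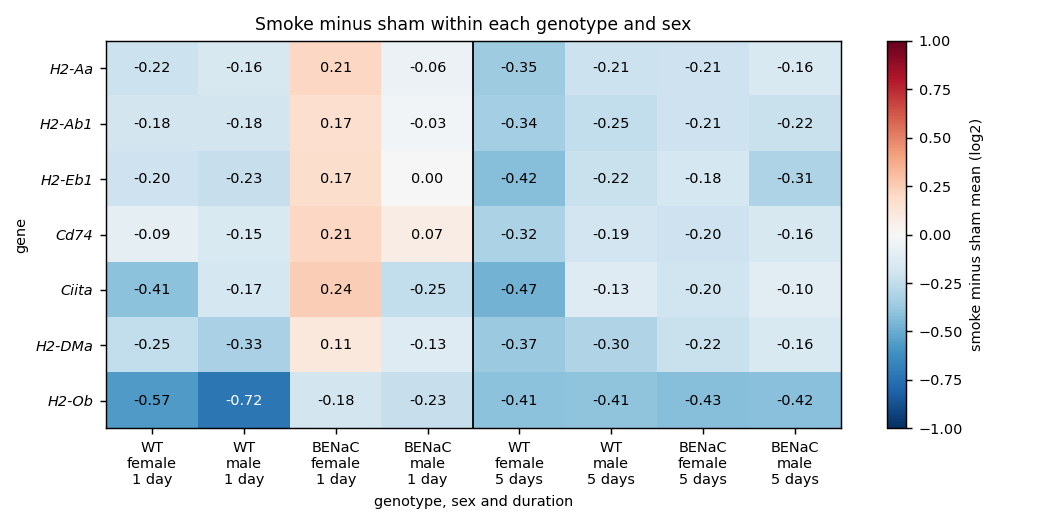
Smoke minus sham mean on the log2 scale for each gene (rows) within each genotype, sex and duration (columns), with blue for lower and red for higher after smoke. At 5 days all cells are below 0, and at 1 day the BENaC female column is above 0 for each gene but H2-Ob.

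For sex 1 of 7 members passed at 1 day, not far from the share of all rows. Cd74 was higher in males by 0.18 (SE 0.05, adjusted p = 0.0273), the one call among 7 members where 9.89% of all rows passed and 7.82% were higher in males. H2-DMa at 0.23 (adjusted p = 0.0573) and H2-Ab1 at 0.20 (adjusted p = 0.0603) had the same sign and did not pass, and H2-Ob was at -0.18. The Cd74 call was lost after a further quantile normalization (0.13, adjusted p = 0.0699) and in 1 fit over all mice (adjusted p = 0.0606), and 3 members passed without the 4 arrays that stood apart or without the 2 mice that carried thymus genes. At 5 days 0 of 7 members passed and 0 had an unadjusted p below 0.05 in limma, with coefficients from -0.11 to 0.05 (0.616% of all rows passed, and 11.3% had an unadjusted p below 0.05). The exposure by sex term passed for 0 of 7 members at each duration (0.00638% of rows at 1 day and 0% at 5 days), as did the sex by duration term (0.654% of rows), with unadjusted p below 0.05 for 0 members in each and for 6.33%, 3.46% and 11.1% of rows. For sex by duration 5 members, H2-Aa, H2-Ab1, H2-Eb1, Cd74 and H2-DMa, had an unadjusted p below 0.05 without WT smoke female 5 days replicate 2 or without the 4 arrays, and 0 passed (smallest adjusted p = 0.271 and 0.228).

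The other class II genes with a row were H2-Oa, the partner chain of H2-Ob, and H2-Eb2, a beta chain gene beside H2-Eb1. H2-Eb2 fell by 0.54 after 1 day of smoke (adjusted p = 9.36e-04), and H2-Oa was at -0.26 (adjusted p = 0.24). At 5 days they were at -0.26 (adjusted p = 0.322) and -0.28 (adjusted p = 0.237). For genotype H2-Eb2 was at -0.20 and 0.23 and H2-Oa at -0.01 and 0.01 at 1 and 5 days, none of which passed. H2-Aa, H2-Ab1 and H2-Eb1 thus had different values under genotype from H2-Oa and H2-Ob, and that difference between genes was not tested.

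Genes that act before and around peptide loading are given as counts of named lists. These counts, and those of the cell marker lists below, can be read against the shares of all rows. With smoke 5.03% of rows rose and 4.43% fell at 1 day, and 3.17% and 3.37% at 5 days. With genotype 3.58% rose and 2.29% fell at 1 day, and 4.85% and 5.33% at 5 days. A single gene that passed is not read as a change of its list. Of 8 genes for class II peptide generation, the endosomal proteases and the reductase Ifi30 that cut and unfold antigen, 7 rose in BENaC mice at 1 day, or 5 without the 2 mice that carried thymus genes, and 7 at 5 days, and 0 fell. At 5 days cathepsin S (Ctss), which trims Cd74, rose by 0.65 (adjusted p = 3.80e-06), cathepsin D (Ctsd) by 0.61 (adjusted p = 4.21e-08), cathepsin Z (Ctsz) by 0.60 (adjusted p = 9.79e-06) and legumain (Lgmn) by 0.45 (adjusted p = 9.97e-04). For exposure 1 of the 8 rose at each duration, cathepsin H (Ctsh), and 0 fell. The proteases therefore moved with genotype and, but for Ctsh, did not pass for smoke.

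Among 6 factors that bind the class II promoter boxes, the list that stands upstream beside Ciita, 0 passed for genotype at either duration. One rose after smoke at both durations, Rfxank, a subunit of the X box complex, by 0.18 (adjusted p = 0.00104) at 1 day and 0.12 (adjusted p = 0.0127) at 5 days. Its direction was opposite to that of the class II genes. Of 9 costimulation and turnover genes, 1 rose with the BENaC genotype at 1 day and 5 at 5 days, where 3.58% and 4.85% of all rows rose. The ligands of the inhibitory receptor PD-1, Pdcd1lg2 and Cd274, rose by 1.35 (adjusted p = 9.74e-04) and 0.64 (adjusted p = 0.00108) at 5 days, and Cd80, a ligand of CD28, by 0.55 (adjusted p = 0.0011). Cd83, which stabilises class II on the cell surface, rose by 0.40 (adjusted p = 0.0027) with genotype at 5 days and fell by 0.34 with smoke (adjusted p = 0.0151), the one costimulation gene of 9 to fall there, while 0 passed at 1 day. Without the 4 arrays that stood apart, 2 of the 9 rose with genotype at 1 day.

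Class I presentation, which displays peptides made inside the cell, held genes that fell with smoke and genes that rose with genotype. Of 10 class I genes, 4 fell at 1 day and 3 at 5 days after smoke, where 4.43% and 3.37% of all rows fell. With the BENaC genotype 1 and 4 rose, where 3.58% and 4.85% of all rows rose. Nlrc5, the class I transactivator, fell at 1 day by 0.38 (adjusted p = 0.00107) and the peptide transporter Tap1 by 0.19 (adjusted p = 0.0301). At 5 days the chaperone Calr fell by 0.19 with smoke (adjusted p = 0.0015), and the transporter Tap2 rose by 0.20 (adjusted p = 0.0206) with genotype. Without WT smoke female replicate 2, 1 of 10 fell with smoke at 5 days, and without the 4 arrays that stood apart, or without the 2 mice that carried thymus genes, 0 rose with genotype at 1 day.

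Interferon gamma, a main inducer of Ciita outside professional presenting cells, has a response list of 13 genes. After smoke 1 fell at 1 day and 1 at 5 days, where 4.43% and 3.37% of all rows fell, and this is not read as a smoke response of the list. With genotype 2 and 3 rose, where 3.58% and 4.85% of all rows rose. The GTPase gene Igtp fell by 0.23 (adjusted p = 0.0299) after 1 day. The chemokine Cxcl10 fell by 0.45 after 5 days of smoke (adjusted p = 0.00266) and rose by 0.52 (adjusted p = 3.97e-04) with genotype. Socs1, an inhibitor of the pathway, rose by 0.32 (adjusted p = 0.0377) with genotype at 1 day. Without WT smoke female replicate 2, 2 of the 13 rose with genotype at 5 days, and without the 2 mice that carried thymus genes 0 rose with genotype at 1 day.

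Markers of the cells that carry class II moved in some of the same comparisons, and their part in the class II differences was not tested. Of 10 B cell markers 3 fell after 1 day of smoke, and 10 of 10 coefficients were negative. Fcer2a fell by 0.65 (adjusted p = 0.00561), Cr2 by 0.49 (adjusted p = 0.0057) and Cd22 by 0.38 (adjusted p = 0.0438), beside the fall of H2-Ob. The mean of the B cell markers at 1 day ran from 6.97 to 8.06 in WT sham, 6.30 to 7.49 in WT smoke, 6.65 to 7.52 in BENaC sham and 5.57 to 7.56 in BENaC smoke lungs. At 5 days 0 of 10 B cell markers passed for smoke, with 10 of 10 coefficients negative and a median of -0.28, against -0.31 at 1 day (unadjusted p below 0.05 for 2 and 7). For genotype 0 passed in limma at either duration, with 9 of 10 coefficients negative at 1 day (median -0.35, unadjusted p below 0.05 for 7) and 8 of 10 at 5 days (median -0.08, unadjusted p below 0.05 for 1). Without the 2 mice that carried thymus genes 3 fell with genotype at 1 day. Without the 4 arrays that stood apart, 1 of 10 fell after 5 days of smoke.

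Dendritic cell markers moved beside the class II chains at 5 days. Of 10 markers 3 fell after smoke and 4 rose with the BENaC genotype at 5 days, and at 1 day 0 passed for smoke while 2 rose and 1 fell with genotype. Siglech, of plasmacytoid cells, fell by 0.38 after smoke (adjusted p = 0.0115). With genotype Itgax rose by 1.21 (adjusted p = 1.24e-07) and the growth factor receptor Flt3 by 0.55 (adjusted p = 3.05e-04) at 5 days, and Cd209a by 0.39 (adjusted p = 0.0277) at 1 day. Itgax is also carried by alveolar macrophages. The dendritic marker mean at 5 days ran from 5.69 to 5.99 in WT sham, 5.26 to 5.93 in WT smoke, 5.94 to 6.57 in BENaC sham and 5.62 to 6.41 in BENaC smoke lungs. Without the 4 arrays that stood apart, 0 of 10 fell with genotype at 1 day.

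Macrophage and monocyte markers split by comparison. Of 10 alveolar macrophage markers 4 rose and 2 fell with genotype at 1 day and 5 rose and 2 fell at 5 days, while for smoke 0 passed at 1 day and 1 rose and 1 fell at 5 days. Atp6v0d2 rose by 1.03 (adjusted p = 7.27e-08), Mcoln3 by 1.01 (adjusted p = 1.62e-08) and the scavenger receptor Marco by 0.84 (adjusted p = 5.25e-04) at 5 days, and Krt79 fell by 1.00 (adjusted p = 1.33e-09). Their mean at 5 days ran from 8.18 to 8.37 in WT sham and 8.38 to 8.99 in BENaC sham lungs, and from 8.41 to 8.57 and 8.26 to 8.96 after smoke. Of 10 markers of monocytes and interstitial macrophages 3 fell at 1 day and 4 at 5 days after smoke, and 3 and 5 rose with genotype. Treml4, of patrolling monocytes, fell by 0.73 with 5 days of smoke (adjusted p = 2.18e-06), and the Fc receptor Fcgr4 rose by 0.66 (adjusted p = 1.04e-04), Adgre1 by 0.59 (adjusted p = 7.02e-04) and the complement gene C1qb by 0.50 (adjusted p = 0.00579) with genotype. Their mean at 5 days ran from 7.20 to 7.50 in WT sham, 6.56 to 7.28 in WT smoke, 7.31 to 8.08 in BENaC sham and 6.99 to 7.97 in BENaC smoke lungs.

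Of 8 alveolar type 2 cell markers 3 rose with genotype at each duration, and 1 fell at 1 day and 2 at 5 days after smoke, all by small amounts. The largest of these was the fall of Abca3, the lamellar body lipid transporter, by 0.15 at 5 days (adjusted p = 2.32e-04), and Lamp3 fell by 0.15 (adjusted p = 6.81e-04). Napsa and Slc34a2 rose by 0.11 (adjusted p = 0.0473) and 0.10 (adjusted p = 0.0014) with genotype at 1 and 5 days. Of 8 T cell markers Cd2 fell after 1 day of smoke, at -0.23 (adjusted p = 0.0327), and 0 others passed. Of 5 thymus genes and 3 lymph node stroma genes 0 passed for exposure or genotype at either duration. In the 77 mice other than the pair that carried thymus genes, Rag1 and Dntt had medians of 2.98 and 2.85 and did not exceed 4.32 and 3.88, below every array median.

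From mouse to mouse within groups, the class II genes other than H2-Ob varied together. Each value was taken as its deviation from its group mean, which leaves 79 mice whose points share an array and a plate. Over the 15 pairs of the 6 genes Pearson's r ran from 0.78 for Ciita with H2-DMa to 0.95 for H2-Ab1 with H2-Eb1, and without the 2 mice farthest from the median it ran from 0.69 for Cd74 with Ciita to 0.91. For H2-Ab1 with H2-Eb1 Spearman's rho was 0.94. The 6 pairs with H2-Ob gave lower values, from 0.39 for H2-DMa to 0.59 for H2-Aa, and without the 2 farthest mice 0.23 and 0.44. For r and for rho all 21 pairs had an adjusted permutation p no larger than 0.0402 (100000 resamples, smallest possible p 1e-05).

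H2-Ob varied with the B cell markers. Its r with the mean of the 10 B cell markers was 0.93 and rho was 0.89 (permutation p = 1e-05 for r, the smallest possible), and 0.92 without the 2 farthest mice. A tail of 8 mice from 8 groups had a B cell mean more than 0.5 below that of their group, a limit set after the values were seen. Within the other 71 mice r was 0.85 and rho was 0.85 (permutation p = 1e-05, the smallest possible), and within the 8 they were 0.77 and 0.90 (exact permutation p = 0.0247 for r). With the T cell markers H2-Ob gave an r of 0.78 and with the dendritic cell markers 0.37, or 0.17 without the 2 farthest mice (rho 0.24, adjusted permutation p = 0.0553 for rho). The other 6 members gave r between 0.61 for Ciita and 0.78 for H2-Eb1 with the dendritic markers, between 0.49 and 0.70 with the B cell markers, between 0.57 and 0.73 with the T cell markers and between 0.26 and 0.43 with the alveolar macrophage markers. With the alveolar type 2 markers Cd74 gave the highest r of the members, 0.68, or 0.53 without the 2 farthest mice. These were 35 relations of 7 members with 5 lists, and every list also shares arrays with the members.

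**Figure D4:**
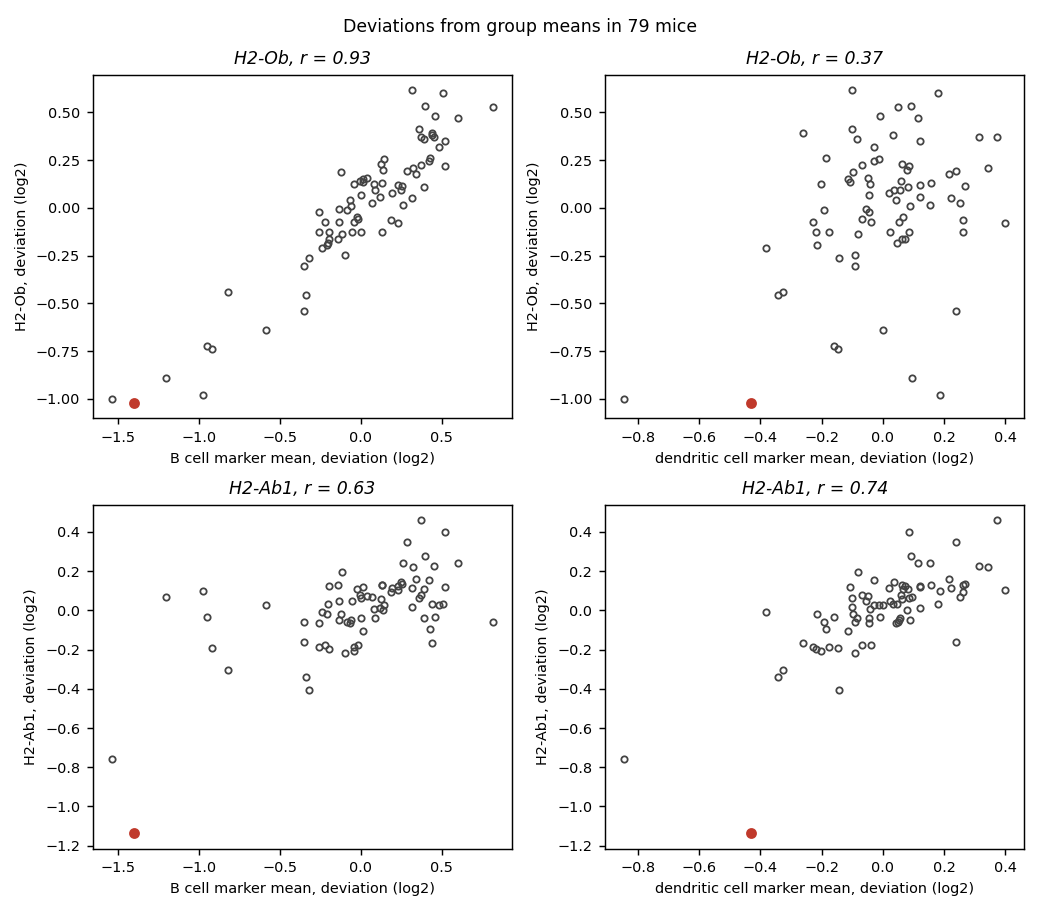
Deviation from the group mean of H2-Ob (top) and H2-Ab1 (bottom) on the y axes against that of the mean B cell (left) and dendritic cell (right) marker on the x axes, in log2 units, 1 point per mouse, with WT smoke female 5 days replicate 2 in red. H2-Ob follows the B cell markers at r = 0.93, and H2-Ab1 the dendritic markers at r = 0.74.

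The 10 genes whose deviations were most like the mean deviation of the 7 members over the 79 mice had r from 0.83 to 0.87. In falling order they were Il27ra, Slc9a7, Il2rg, Ltb, Rasgrp1, Ly6d, Cd3g, Kmo, Cd2 and Fgd2, and 8 of them were among the 10 most alike without the 2 mice that carried thymus genes. Il2rg is the shared gamma chain of interleukin receptors, Ltb is lymphotoxin beta, and Cd3g and Cd2 belong to T cells. Of these, Fgd2 rose with the BENaC genotype at 5 days by 0.32 (adjusted p = 0.0305), Il2rg fell with smoke at 5 days by 0.33 (adjusted p = 0.00913) and Cd2 fell with smoke at 1 day, and the other 7 passed in none of these 4 comparisons.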

How the data were processed

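Whole lung RNA of each mouse was hybridised to 1 Affymetrix array, all on the same plate. The authors deposited log2 intensities per gene, which RMA with adjustment for probe sequence and GC content, quantile normalization and median polish had produced, with Affymetrix Expression Console 1.4 and Partek 6.6 named in the submitters' processing notes, and they had removed 1 array as mislabelled. No further normalization was applied, and no column was left out. Arrays carry no counts, so the number of arrays limits the precision.

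Rows were named by the study's gene tables (2537 rows) or by unversioned RefSeq accession (19300 rows), and 9513 rows had no symbol. Each duration was fitted in R 4.3.3 with limma 3.58.1 (lmFit, eBayes) on genotype, exposure and sex, with Benjamini-Hochberg adjustment over 31350 rows. Within each duration, the same model let exposure interact with genotype and with sex, beside the main terms. Terms with duration used all 79 mice. For exposure by duration the model held exposure, duration and their interaction, without genotype or sex. The interactions of genotype and of sex with duration came from a further model. In it genotype, exposure and sex each interacted with duration. The 1.3-fold condition was a coefficient larger in size than 0.379. The procedure was tested on simulated data. Correlations used two-sided permutation tests of 100000 resamples (seed 1), and an exact permutation test where there were 8 mice.

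The members and lists were chosen with earlier results of these data known. The lists name 120 genes, of which 112 had a row, and 1 further gene is not reported here. The text gives every member, the other class II genes, up to 4 passing genes per list by size of coefficient, the 10 genes most alike and Scnn1b. Alternatives were an ordinary linear model, median-centred arrays, a further quantile normalization, omission of the lowest 30% of rows, array weights, eBayes with trend and robust, a block for replicate number, 1 fit over all mice, genotype and sex terms by duration, the 1.3-fold condition, each mouse left out and, added after seeing the data, the 4 arrays that stood apart left out and the 2 mice highest in thymus markers left out. The animals are separate mice, and replicate numbers were not taken as pairs outside the block for replicate number. Promoters were searched and figures plotted with Python 3.11.15 and matplotlib 3.10.9.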

Additional observations from a re-analysis of the deposited data

Results flagged for a closer look

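In 112 combinations of gene and group, 18 held a mouse farther from the rest of its group than Dixon's 95% criterion allows, where chance gives about 5.6. Of these, 10 came from 2 mice. WT smoke female 5 days replicate 2 was low for H2-Aa (9.05, next lowest 10.14), H2-Ab1 (9.83, next 11.08), H2-Eb1 (8.06, next 9.54), Cd74 (10.44, next 11.48) and Ciita (5.50, next 6.90). BENaC smoke female 1 day replicate 5 was low for H2-Aa (9.79, next 10.54), H2-Ab1 (10.65, next 11.56), H2-Eb1 (8.90, next 9.93), Ciita (6.76, next 7.70) and H2-Ob (5.19, next 6.37). Both belong to the 8 mice with a low B cell marker mean, with deviations of -1.40 and -1.54 from their group.

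The other 8 were single genes. At 5 days, H2-Aa was low in BENaC smoke male replicate 1 (10.21), Cd74 in WT sham female replicate 3 (11.18) and in BENaC sham female replicate 2 (11.94), and H2-DMa in WT sham male replicate 5 (8.25). High values were those of H2-Ab1 in WT smoke male replicate 3 (11.29), Ciita in BENaC smoke female replicate 5 (8.81), and H2-Ob in BENaC smoke female replicate 4 (6.70) and BENaC sham female replicate 4 (6.91).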

How the results depend on the processing

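The 6 genotype calls at 5 days and the H2-Ob call for smoke at 1 day were made under every alternative fit and in every fit that left out 1 mouse, except that under the 1.3-fold condition the 5-day genotype count was 1. The 4 smoke calls at 5 days became 3 with the ordinary linear model or the replicate block, 4 with median-centred arrays or a trend and robust prior, 5 with a further quantile normalization, the lowest 30% of rows left out, array weights or the 4 arrays that stood apart left out, 6 in 1 fit over all mice, and 0 with the 1.3-fold condition. The genotype count at 1 day, 2, was 4 with array weights, 1 in 1 fit over all mice, and 0 with the 1.3-fold condition or without the 2 mice highest in thymus markers. The sex count at 1 day, 1, was 0 after quantile normalization or with the 1.3-fold condition, and 3 with the lowest 30% of rows left out, array weights, or without the 4 arrays or the 2 mice highest in thymus markers. Leaving out 1 mouse gave 0 to 5 members for genotype at 1 day, 1 to 3 for sex at 1 day and 1 to 5 for smoke at 5 days. Interaction counts stayed at 0 in all of these. The cause of these shifts was not tested.

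Of 567 recomputed coefficients of single members, 511 kept direction and side of the threshold, 25 gained a call, 9 lost one and 22 changed sign, all 22 from values that had not passed. For sex at 5 days H2-Aa changed to -0.000680 after quantile normalization, -0.0226 with array weights, -0.00719 with the replicate block and -0.0422 without the 4 arrays, H2-Eb1 to -0.0128, -0.0385 and -0.0655 with quantile normalization, array weights and without the 4 arrays, and H2-Ab1 to -0.0102 without the 4 arrays. Ciita changed for sex at 1 day to -0.0175 after quantile normalization, and for exposure by duration to 0.00617 with array weights and 0.0475 without the 4 arrays, and without the 2 mice highest in thymus markers this term of Ciita was 0.0167 and Cd74 with smoke at 1 day -0.00950. Over single mice left out, 21 of 91 ranges crossed 0, of them 6 for exposure by genotype and 6 for exposure by sex at 5 days. The other 9 were -0.0121 to 0.0297 for Cd74 with smoke at 1 day, -0.0113 to 0.0618 for Ciita with sex at 1 day, at 5 days with sex -0.0483 to 0.0217 for H2-Aa, -0.0103 to 0.0662 for H2-Ab1, -0.0677 to 0.0171 for H2-Eb1, -0.00612 to 0.0606 for Cd74 and -0.00481 to 0.0562 for H2-DMa, and for exposure by duration -0.12 to 0.0634 for Ciita and -0.0524 to 0.0783 for H2-Ob. For same-numbered mice of different groups of a duration, deviations gave r from -0.28 to 0.54 (266 pairs, median 0.01, 42 above 0.1). Differently numbered pairs were not set beside them, so whether the numbers pair mice cannot be read from these values. With the replicate block 3 members passed for smoke at 5 days in limma, H2-Ab1 being lost (adjusted p = 0.0532). No member had a second row, so that alternative was not run.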
